A study of Malus domestica with 6 samples.

Results

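Carboxylesterases (CXE) are the enzymes that cut an ester into its alcohol and its acid, and 6 apple genes with this annotation are described here: MdCXE-2 (MD05G1191100), MdCXE-3 (MD11G1176900), MdCXE-4 (MD15G1085200), MdCXE-5 (MD10G1091100), MdCXE-7 (MD02G1198400) and MdCXE-8 (MD02G1198500). They are 6 of the 8 CXE genes that the study lists, among 46558 genes in the deposited table. The study listed them because they differed between the same libraries that are used here. Their differences between the cultivars are therefore a description, no p-value is given for any of them, and where a member is said to be called, this means only that it met the criteria of a fit over all genes. RNA-seq was run on pulp from ripe, unbagged fruits of the red-skinned cultivar Jonagold and the green-skinned cultivar Granny Smith, with 3 libraries per cultivar. Jonagold is a cross of Jonathan with Golden Delicious, both cultivars were grafted on the rootstock M26, and every library came from the pooled pulp of several fruits. Each cultivar was sampled at 1 stage, so that cultivar and progress of ripening cannot be told apart. The pulp label was not checked against marker genes, because the table pairs its identifiers with no gene names.

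Fruit esters are made by alcohol acyltransferases (AAT), which join an alcohol to an acyl group carried by coenzyme A, and they can be taken apart again by carboxylesterases. Plant CXE proteins share the alpha/beta hydrolase fold, and the same family also holds the gibberellin receptors, so that membership alone does not give the substrate. In tomato and peach, single members of the family are known to hydrolyse volatile esters of the ripe fruit. The study lists the CXE genes under isoleucine metabolism, the source of branched-chain esters. Its text counts CXE among the enzymes important for making these esters, and reports most of its CXE genes as higher in Jonagold. Its annotation of the 6 genes reads carboxylesterase and gives no further role for any single gene.

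The values are FPKM as the authors deposited them. By definition FPKM divides the fragments of a gene by its transcript length and by the depth of the library. In these paired-end libraries a fragment is a read pair, and the reads counted here are such fragments. The library factor of the deposited values did not equal the recovered read totals given below. The FPKM of a library summed to between 755644 and 800812 in Jonagold and to between 554856 and 599617 in Granny Smith. For 34278 of the 34279 genes above 0 the values could be traced back to whole reads, and these recovered reads summed to between 14193282 and 16353408 in Jonagold and to between 17081863 and 17259098 in Granny Smith. One read carried 1.29 to 1.46 times as much FPKM in the Jonagold libraries as in Granny Smith replicate 1. That is more than the read totals differ, and what set this factor was not tested. For MdCXE-2 it was worth 0.0673 to 0.0763 FPKM in the Jonagold libraries, against 0.0493 to 0.0523 FPKM in the Granny Smith libraries. When all libraries were brought to the same FPKM total, the median log2 difference of all tested genes moved to -0.34, against 0.00 as deposited.

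The comparison asks how the transcripts of ester-hydrolysing enzymes differ between apple cultivars whose volatile compounds the study measured. MdCXE-5, MdCXE-7 and MdCXE-8 had higher levels in Jonagold, and MdCXE-2, MdCXE-4 and MdCXE-3 had lower levels. As deposited, the 3 Jonagold libraries did not overlap the 3 Granny Smith libraries in any of the 6 genes, and the same held for 59.6% of the 20993 genes tested. With equal FPKM totals 5 of the 6 genes did not overlap, against 67.3% of the genes tested, and MdCXE-8 did. By limma on log2(FPKM + 1), with an adjusted p-value below 0.05 and at least a 2-fold difference, all 6 members were called, against 21.3% of all tested genes. Of these, 3 were called higher in Jonagold, against 12.0% of all tested genes, and 3 were called lower, against 9.34%. Nothing is read from these counts, since the members were chosen by this contrast. The median log2 fold change of the 6 members was 0.04, and that of all tested genes was 0.00. All 6 members reached the mean of 1 FPKM required for the test, but MdCXE-5 and MdCXE-7 reached it only through Jonagold and MdCXE-3 only through Granny Smith. In bulk tissue, fewer cells that express a gene and less RNA per cell cannot be told apart.

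MdCXE-5, on chromosome 10, had the widest difference. It measured 23.6, 43.2 and 41.5 FPKM in Jonagold replicates 1, 2 and 3, against 0.111, 0.266 and 0.419 FPKM in Granny Smith replicates 1, 2 and 3. These levels rested on 293 to 604 reads per Jonagold library and on only 2, 5 and 8 reads in the Granny Smith libraries. The transcript was thus well measured in Jonagold and close to the limit of detection in Granny Smith. Whether Granny Smith reads of this gene align to the reference genome as well as Jonagold reads do was not tested. The mean was 36.1 ± 10.9 FPKM in Jonagold and 0.265 ± 0.154 FPKM in Granny Smith (SD, n = 3 each), a ratio of 136 with a 95% interval of 82.2 to 244 from counting alone. Leaving out a library moved this ratio between 105, without Granny Smith replicate 1, and 191, without Granny Smith replicate 3. On log2(FPKM + 1), where the added 1 outweighs the Granny Smith level, the log2 fold change was 4.83 (standard error 0.23).

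MdCXE-7, on chromosome 2, was a gene of low level in both cultivars. It measured 2.07, 3.88 and 1.87 FPKM in Jonagold, from 29, 61 and 26 reads. The Granny Smith libraries held 3, 4 and 1 reads, which correspond to 0.148, 0.189 and 0.0465 FPKM. The lowest Jonagold library was thus above the highest Granny Smith library, although the Granny Smith level is a matter of single reads. By qRT-PCR the paper also reports higher CXE expression in Jonagold, with primers listed for this gene. The ratio of the means was 20.4, and counting error alone allowed 10.01 to 48.3. Its log2 fold change on log2(FPKM + 1) was 1.64 (standard error 0.23), much smaller than the ratio implies because both levels are near the added 1. Without Jonagold replicate 2 the gene fell below the minimum mean and could not be fitted.

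MdCXE-8, the gene with the next identifier after MdCXE-7, was expressed in both cultivars. It measured 24.5, 44.1 and 36.7 FPKM in Jonagold, against 14.8, 19.2 and 12.7 FPKM in Granny Smith. The cultivars came closest in Jonagold replicate 1 and Granny Smith replicate 2, which with equal FPKM totals overlapped, at 21.70 and 21.73 FPKM. The means were 35.1 ± 9.89 FPKM in Jonagold and 15.6 ± 3.31 FPKM in Granny Smith (SD, n = 3 each), a ratio of 2.26 with a counting interval of 2.08 to 2.44. Its log2 fold change of 1.10 (standard error 0.22) lay just inside the 2-fold criterion. It was under that criterion at 0.92 without Jonagold replicate 2, at 0.98 without Granny Smith replicate 3, and at 0.72 with equal FPKM totals, with the direction kept.

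**Figure D1:**
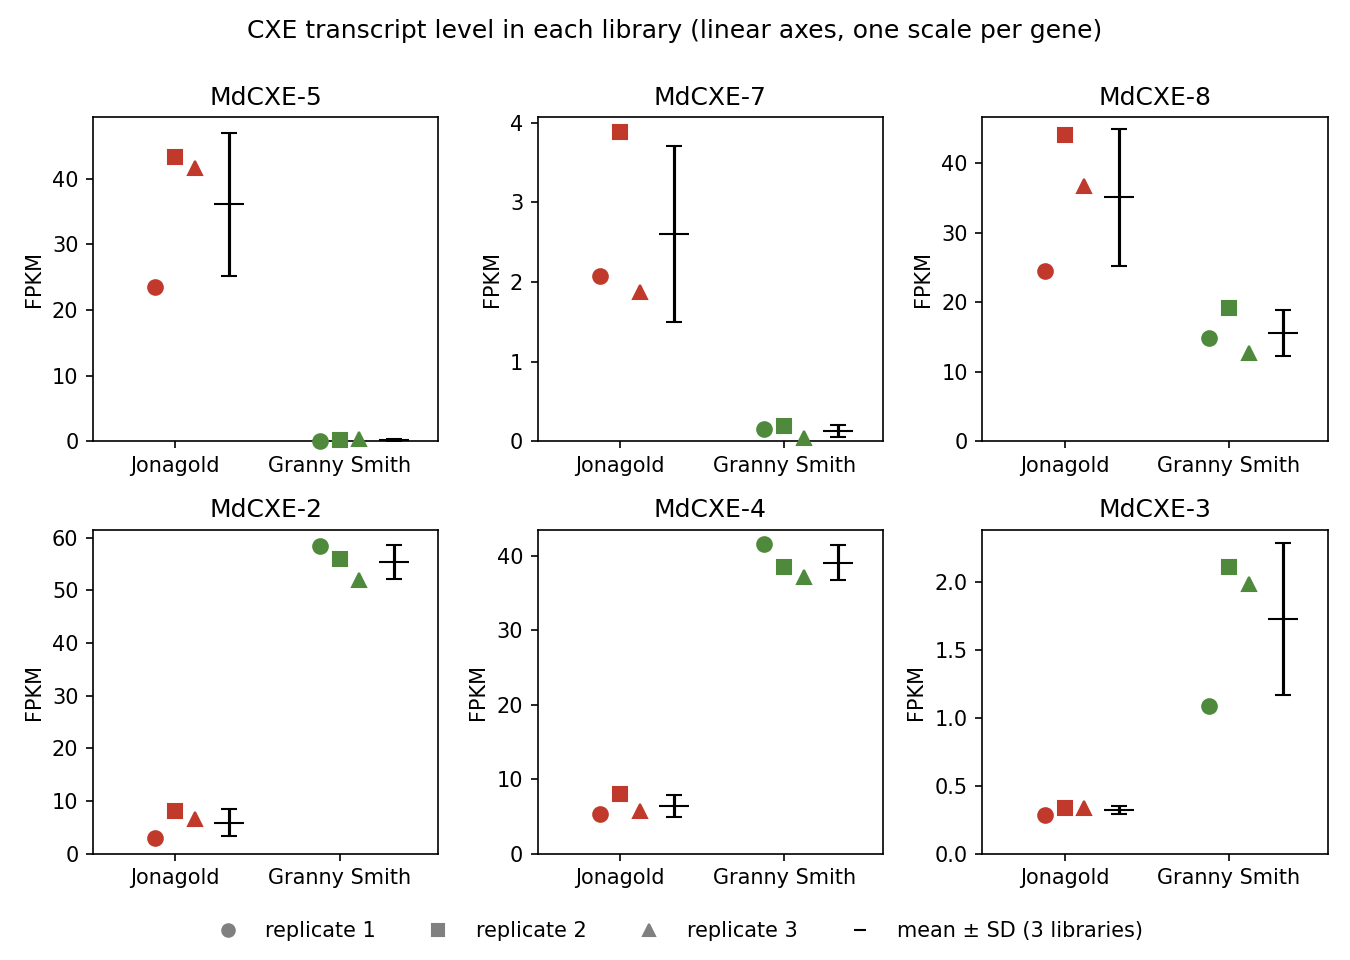
FPKM of the 6 CXE genes in each library, with a linear axis from 0 for each gene; points are single libraries (circle, square and triangle for replicates 1, 2 and 3), and the black bars give the mean and SD of the 3 libraries of a cultivar. In the upper row, as deposited (MdCXE-5, MdCXE-7 and MdCXE-8) every Jonagold point lies above every Granny Smith point, and in the lower row (MdCXE-2, MdCXE-4 and MdCXE-3) every Jonagold point lies below.

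MdCXE-2, on chromosome 5, was the most abundant of the 6 transcripts in Granny Smith. It measured 3.10, 8.08 and 6.64 FPKM in Jonagold replicates 1, 2 and 3, against 58.3, 56.0 and 51.9 FPKM in Granny Smith replicates 1, 2 and 3. The Granny Smith libraries lay close together, whereas the Jonagold libraries differed up to 2.61-fold among themselves. The mean level was 9.33-fold lower in Jonagold, with a counting interval of 8.20 to 10.7, and the log2 fold change was -3.10 (standard error 0.26). Without Jonagold replicate 1 it was 7.53-fold lower and without Jonagold replicate 2 it was 11.4-fold lower.

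MdCXE-4, on chromosome 15, had a pattern similar to that of MdCXE-2. It measured 5.39, 8.10 and 5.74 FPKM in Jonagold, against 41.7, 38.5 and 37.1 FPKM in Granny Smith. Its level was 6.10-fold lower in Jonagold (counting interval 5.37 to 6.95), and its log2 fold change was -2.45 (standard error 0.15). Within the Granny Smith libraries MdCXE-2 exceeded MdCXE-4 by a nearly fixed factor of 1.40, 1.45 and 1.40. Within the Jonagold libraries the factor was 0.576, 0.997 and 1.16, so that the order of this pair was not the same in every Jonagold library.

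MdCXE-3, on chromosome 11, was the weakest of the members that were lower in Jonagold. It measured 0.285, 0.338 and 0.335 FPKM in Jonagold, from 6, 8 and 7 reads. In Granny Smith it measured 1.08, 2.10 and 1.98 FPKM, from 33, 67 and 64 reads. The ranges did not overlap, and Granny Smith replicate 1 stood closer to Jonagold than the other Granny Smith libraries did. The mean was 5.39-fold lower in Jonagold, with a counting interval of 3.41 to 8.95. The log2 fold change was -1.02 (standard error 0.20), the one nearest to the 2-fold criterion among the 6 genes, and the gene fell below the minimum mean when Granny Smith replicate 2 or 3 was left out.

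**Figure D2:**
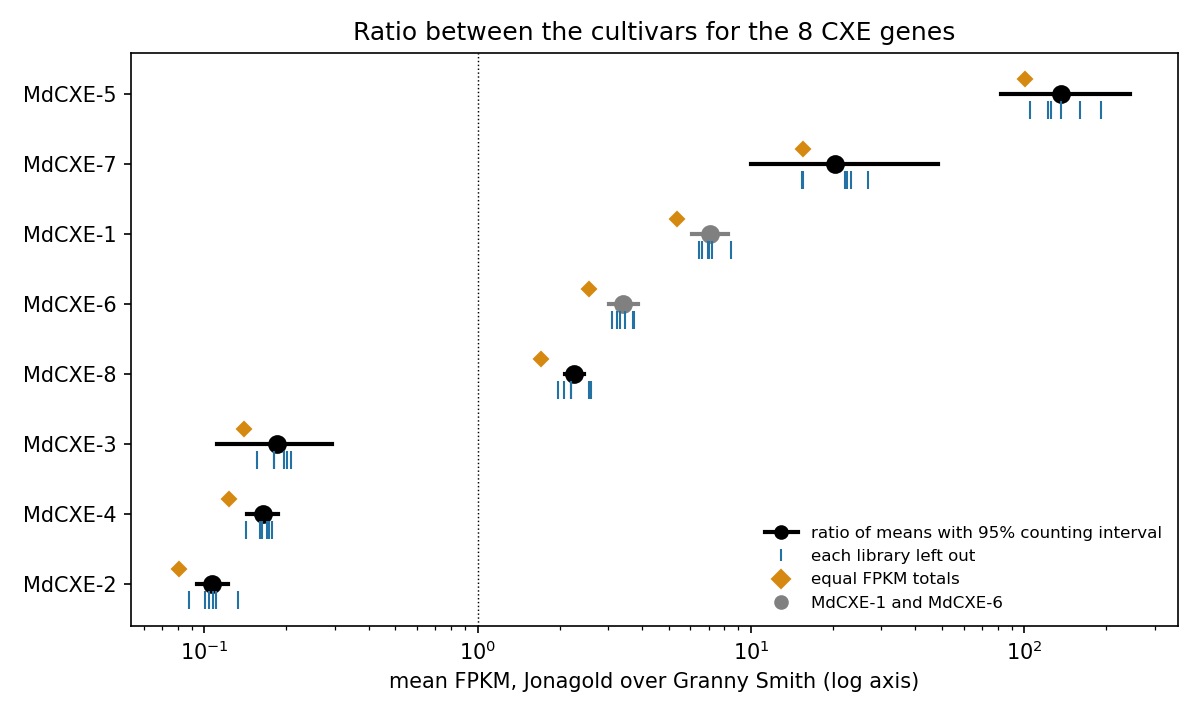
Ratio of the mean FPKM of Jonagold over Granny Smith for the 8 CXE genes of the study, on a log axis; the line through each point is the 95% counting interval, the ticks are the ratios with each library left out, the diamonds are the ratios with equal FPKM totals, and MdCXE-1 and MdCXE-6, which are not among the 6 genes, are grey. All of these marks stay on the same side of 1 for each gene, from 136 for MdCXE-5 down to a level 9.33-fold lower in Jonagold for MdCXE-2.

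FPKM is scaled to gene length, so the levels can be ranked among genes. In Jonagold the order of mean FPKM was MdCXE-5, MdCXE-8, MdCXE-4, MdCXE-2, MdCXE-7 and MdCXE-3. MdCXE-5 and MdCXE-8 did not differ beyond their spread, with 36.1 and 35.1 FPKM, and MdCXE-5 was the higher of the pair in only 1 of 3 libraries. MdCXE-4 and MdCXE-2 likewise overlapped, with 6.41 and 5.94 FPKM. MdCXE-2 exceeded MdCXE-7 in all 3 Jonagold libraries, although their ranges overlapped. In Granny Smith the order was MdCXE-2, MdCXE-4, MdCXE-8, MdCXE-3, MdCXE-5 and MdCXE-7. There the neighbours in the order were separated in all 3 libraries down to MdCXE-5, and only MdCXE-5 and MdCXE-7, both resting on single reads, overlapped. MdCXE-8 was among the 3 most abundant members in both cultivars.

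Set against all tested genes, the leading members had high but not extreme levels. In Jonagold the mean of MdCXE-5 was above that of 85.5% of the tested genes and that of MdCXE-8 above 85.1%. In Granny Smith the mean of MdCXE-2 was above that of 91.7% of the tested genes and that of MdCXE-4 above 87.8%. MdCXE-5 was above only 2.43% of them in Granny Smith, and MdCXE-2 was above 43.8% in Jonagold.

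The 6 transcripts together came to 58.9, 108 and 92.9 FPKM in Jonagold replicates 1, 2 and 3, against 116, 116 and 104 FPKM in Granny Smith replicates 1, 2 and 3. As deposited, the sums overlapped, since Jonagold replicate 2 was above Granny Smith replicate 3. The means of the sums were 86.5 ± 25.0 FPKM in Jonagold and 112 ± 6.98 FPKM in Granny Smith (SD, n = 3 each). With equal FPKM totals the sums no longer overlapped, at 52.2 to 91.3 FPKM in Jonagold and 128 to 132 FPKM in Granny Smith. The mean of the sums was higher in Granny Smith under both scalings, 1.30-fold as deposited and 1.72-fold with equal FPKM totals. The size of this difference and the overlap of the libraries thus depended on the scaling, and its direction did not.

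The composition of that sum does not depend on the scaling, because every gene of a library is multiplied by the same factor. MdCXE-5, MdCXE-7 and MdCXE-8 together made up 85.1%, 84.7% and 86.3% of the summed FPKM in Jonagold replicates 1, 2 and 3, and 13.0%, 16.9% and 12.6% in Granny Smith replicates 1, 2 and 3. That these shares differ follows from grouping the genes by direction, and only their size and steadiness are a description. MdCXE-5 alone held 40.0%, 40.1% and 44.7% of the sum in Jonagold, against 0.0958%, 0.229% and 0.402% in Granny Smith. MdCXE-2 alone held 5.27%, 7.50% and 7.15% in Jonagold, against 50.2%, 48.2% and 49.8% in Granny Smith. MdCXE-8 held 41.6%, 40.9% and 39.6% in Jonagold, against 12.7%, 16.5% and 12.2% in Granny Smith. The share of MdCXE-8 was thus nearly the same in the 3 Jonagold libraries, although its FPKM differed up to 1.80-fold among them.

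**Figure D3:**
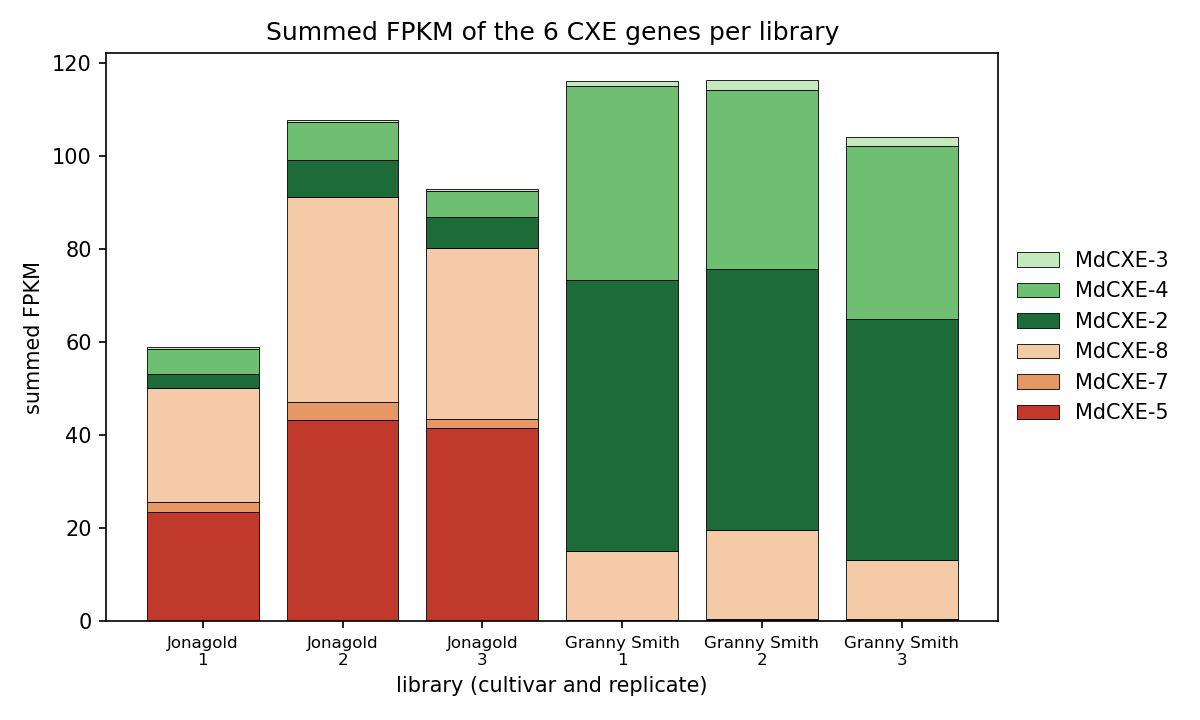
Summed FPKM of the 6 CXE genes in each library, stacked by gene from 0; bars are single libraries, with the 3 Jonagold libraries to the left of the 3 Granny Smith libraries. MdCXE-5 and MdCXE-8 fill most of each Jonagold bar and MdCXE-2 and MdCXE-4 most of each Granny Smith bar, while the height of the bars, 58.9 to 108 in Jonagold and 104 to 116 in Granny Smith, overlaps.

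Among the Jonagold libraries as deposited, replicate 2 was the highest for all 6 members, as it was for 30.9% of the tested genes. For MdCXE-3 that order rested on 8 against 7 reads. With equal FPKM totals replicate 2 was the highest for 4 of 6 members, against 22.8% of the tested genes, and replicate 3 was the highest for MdCXE-5 and MdCXE-3. Replicate 1 was the lowest for 5 of the 6 members, with MdCXE-7 as the exception, as it was for 36.5% of the tested genes, and with equal totals it was again the lowest for 5 members. As deposited, the Granny Smith libraries showed no common order, with the highest value in replicate 1 for MdCXE-2 and MdCXE-4, in replicate 2 for MdCXE-3, MdCXE-7 and MdCXE-8, and in replicate 3 for MdCXE-5. MdCXE-1 and MdCXE-6, the other CXE genes of the study, did not have replicate 2 as their highest Jonagold library. MdCXE-1 was the highest in Jonagold replicate 3 at 22.3 FPKM, and MdCXE-6 was the highest in Jonagold replicate 1 at 22.2 FPKM.

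The spread between libraries can be set beside the spread that counting reads would give. In Jonagold the coefficient of variation (SD over mean) was 43.1% for MdCXE-2, 42.3% for MdCXE-7, 30.2% for MdCXE-5, 28.2% for MdCXE-8 and 23.0% for MdCXE-4. Counting alone would give 4.32% to 16.1% for these 5 genes, and the median over all tested genes was 14.5%. MdCXE-3 spread by 9.39% in Jonagold, less than the 37.8% that counting its 6 to 8 reads would give. In Granny Smith the coefficient of variation was only 5.90% for MdCXE-2 and 5.96% for MdCXE-4, below the median of 13.7% over all tested genes, and counting alone would give 3.02% and 3.60%. With equal FPKM totals these values were 2.41% and 3.98%. MdCXE-3 spread by 32.3% and MdCXE-8 by 21.3% in Granny Smith, both above the median and above the 13.5% and 5.43% from counting. MdCXE-5 and MdCXE-7 spread by 58.0% and 57.4% in Granny Smith, where counting alone would give 44.7% and 61.2%. For MdCXE-5 and MdCXE-7 the Granny Smith level is known only to the order of a few reads.

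**Figure D4:**
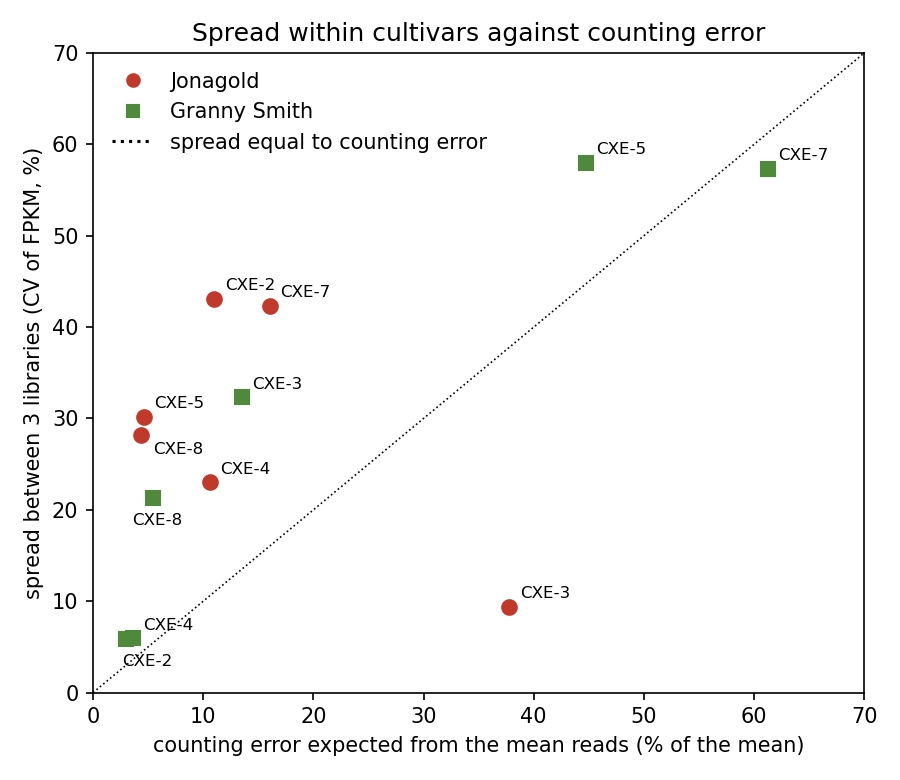
Coefficient of variation of FPKM between the 3 libraries of a cultivar (vertical axis, percent) against the counting error expected from the mean number of reads (horizontal axis, percent), for the 6 CXE genes in Jonagold (circles) and Granny Smith (squares); the dotted line marks equality. In Jonagold 5 of the 6 genes lie well above the line, between 23.0% and 43.1%, and in Granny Smith MdCXE-2 and MdCXE-4 lie at 5.90% and 5.96%.

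By their GDDH13 identifiers the 6 genes lie on chromosomes 2, 5, 10, 11 and 15. Start and end positions, exons and sequences were not used here. MdCXE-7 and MdCXE-8 have consecutive identifiers on chromosome 2, and MdCXE-5 directly follows MdCXE-1 (MD10G1091000) on chromosome 10. The sources used here do not give how reads that match more than 1 gene were assigned, and how alike the genes of a pair are in sequence was not examined here. In the pair on chromosome 2 the later gene was far more abundant, with MdCXE-8 over MdCXE-7 at 11.8, 11.4 and 19.6 in Jonagold, against 99.9, 102 and 273 in Granny Smith. In the pair on chromosome 10 the order differed between the cultivars. MdCXE-5 over MdCXE-1 was 1.13, 1.98 and 1.86 in Jonagold, against 0.0272, 0.101 and 0.169 in Granny Smith. Both genes of each pair were higher in Jonagold.

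Most of the genes around the members were too low for the test, as were most genes of the table, where 20993 of 46558 were tested. Of the 20 other genes that lie within 2 identifiers on either side of a member, 5 were listed at 0 in all 6 libraries and 8 reached the minimum mean for the test. Of these 8, only MdCXE-1 was called, higher in Jonagold, and none was called lower. Over all tested genes the shares were 12.0% and 9.34%, so nothing is read from these counts. The genes on either side of MdCXE-4 had 58.0 ± 1.51 and 51.7 ± 2.54 FPKM in Jonagold, against 66.7 ± 2.16 and 61.1 ± 5.94 FPKM in Granny Smith (SD, n = 3 each). Their log2 fold changes were -0.20 and -0.23, against -2.45 for MdCXE-4.

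The other CXE genes of the study, MdCXE-1 and MdCXE-6 (MD08G1226300), were both higher in Jonagold. MdCXE-1 measured 20.9, 21.9 and 22.3 FPKM in Jonagold, against 4.08, 2.65 and 2.48 FPKM in Granny Smith, a ratio of 7.06. MdCXE-6 measured 22.2, 21.4 and 16.9 FPKM in Jonagold, against 6.06, 4.74 and 6.92 FPKM in Granny Smith, a ratio of 3.42. With these genes included, the sum over the 8 CXE genes was 128 ± 24.7 FPKM in Jonagold and 121 ± 6.74 FPKM in Granny Smith (SD, n = 3 each), and it overlapped between the cultivars as deposited. With equal FPKM totals it came to 90.4 to 128 FPKM in Jonagold and 139 to 143 FPKM in Granny Smith, without overlap and with the lower mean in Jonagold.

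The ester-forming AAT genes, which the study likewise listed from these libraries, gave a background to the hydrolases. Of the 10 AAT genes 8 were tested, of which 7 were called higher in Jonagold and 0 lower, against 12.0% and 9.34% of all tested genes. MdAAT-2 (MD14G1011700), below the minimum mean, went the other way as deposited, with 0.445 ± 0.106 FPKM in Jonagold and 1.49 ± 0.634 FPKM in Granny Smith (SD, n = 3 each), 3.36-fold lower in Jonagold and without overlap. At an added 1 FPKM the largest log2 fold change of this list was that of MdAAT-5 (MD13G1109300) and the lowest among the tested genes that of MdAAT-4 (MD10G1283900), at 6.64 and 0.77. The ratio of the means of MdAAT-5 was 100.1, and 209 without Granny Smith replicate 1. Summed over the list, AAT transcripts came to 823 ± 63.6 FPKM in Jonagold and 25.1 ± 9.25 FPKM in Granny Smith (SD, n = 3 each). The summed level of the AAT genes was therefore 32.8-fold higher in Jonagold, and 25.0-fold higher with equal FPKM totals. MdAAT-5 alone gave 552 FPKM of the Jonagold sum. The sum does not stand for each gene, since the ratio of the means of MdAAT-4 was only 2.89 and MdAAT-2 was lower in Jonagold. The sum of the 8 CXE genes was 1.06-fold that of Granny Smith in Jonagold as deposited, and 0.798-fold with equal FPKM totals. Both sums hold only genes that the study listed as differing between these libraries, so they are not totals of the AAT or CXE family. The ratios of the sums carry that selection, and no balance between forming and cutting esters is read from them.

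The genes with the most similar profiles were searched for among the 73 other tested genes that the study names, by the root mean square difference of log2(FPKM + 1) over the 6 libraries after each gene was centred on its own mean. MdCXE-2 and MdCXE-4 shared the nearest gene, MdPD-1 (MD12G1173200), annotated as pyruvate decarboxylase, at a difference of 0.44 and 0.24. MdPD-1 had 47.9 ± 2.83 FPKM in Jonagold and 322 ± 27.5 FPKM in Granny Smith (SD, n = 3 each). MdCXE-3 was nearest to MdPMK (MD09G1247700), phosphomevalonate kinase, at 0.13. For the members that were higher in Jonagold, the nearest genes were MdAAT-6 (MD13G1109000) for MdCXE-5 at 0.38, MdAAT-7 (MD16G1108900) for MdCXE-7 at 0.21, and MdBCAT-1 (MD15G1063100), a branched-chain aminotransferase that acts in isoleucine turnover, for MdCXE-8 at 0.18. For MdCXE-5 and MdCXE-7 the second nearest gene was not an AAT gene, at 0.51 and 0.23. AAT enzymes form esters, whereas the CXE annotation names enzymes that cut them. The likeness includes the difference between the cultivars, by which both genes of each match were listed.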

How the data were processed

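Per the methods, clean reads were aligned to the apple genome GDDH13 and quantified with Cufflinks by the authors, who deposited FPKM for each gene in each library. The paper lists a lower share of mapped reads for every Jonagold library than for every Granny Smith library. The notes deposited with the samples instead name Bowtie 0.12.2 and the mouse builds mm8 and mm9, which apple identifiers contradict. The paper and the labels also name different RNA and library kits. All 6 columns were used. Whole reads were recovered from the FPKM values by a factor per library and per gene, within a relative tolerance of 1e-06 (1e-05 reads below 10 reads), save for a common divisor that all reads of a gene may share, and the recovery was tested on simulated data. Counting intervals of 95% are exact binomial, from reads summed over the libraries of a cultivar, and cover counting error only, not the spread between libraries. The reads carry no molecular identifiers, so copies of the same molecule could not be told apart and the intervals may be too narrow.

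The study called differential genes with a count test. The table holds FPKM, so Jonagold was compared with Granny Smith by limma 3.58.1 in R 4.3.3 on log2(FPKM + 1), with a trend, without covariates, over genes whose mean reached 1 FPKM. The fold change on this scale understates the change of low genes. Benjamini-Hochberg adjustment covered all tested genes, and p-values measure the spread between 3 pools per cultivar. The fit was tested on simulated data. The remaining steps used Python 3.11.15, numpy 2.4.6, pandas 2.3.3 and scipy 1.17.1.

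Named were the 6 members, the other CXE genes, the AAT genes with the largest and lowest change, the nearest profile of each member and its neighbours within 2 identifiers. The members and lists were chosen with earlier results of these data known. Gene names are those of the study, and 0 identifiers matched the RefSeq gene table at hand. The alternatives were a pseudocount of 0.1, no minimum mean, equal FPKM totals, a replicate block, each library left out, and, chosen after seeing the data, scaling to recovered reads. Volatiles and qRT-PCR were not analysed here.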

Additional observations from a re-analysis of the deposited data

How the results depend on the processing

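As deposited, the calls in Jonagold came to 2515 higher and 1960 lower genes. Equal FPKM totals turned this split round, to 1845 higher and 3362 lower, and scaling to recovered reads, chosen after seeing the data, gave 1934 and 3037, with the median over all tested genes at a log2 fold change of -0.29. Under both scalings MdCXE-8 was no longer called, at log2 fold changes of 0.72 and 0.78, and the other 5 members kept their calls. The libraries of MdCXE-8 also overlapped between the cultivars under both scalings. Replicate 2 was the highest Jonagold library for 4 and 5 of the 6 members, against 22.8% and 30.1% of the tested genes. All these comparisons were chosen after seeing the data. The Granny Smith mean of the summed FPKM of the 6 members was 130.4 with equal totals, against 112 as deposited. A pseudocount of 0.1 gave 3035 and 2531 calls and no minimum mean gave 2761 and 2110, with every member's call and direction kept in both.

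With each library left out, 1 to 3 members were called higher and 2 to 3 lower. Over all tested genes 2404 to 2632 were called higher and 1835 to 2098 lower. MdCXE-8 ranged from 0.92 to 1.34 and was not called without Jonagold replicate 2 or Granny Smith replicate 3. The count of 1 came without Jonagold replicate 2, where MdCXE-7 was below the minimum mean, as MdCXE-3 was without Granny Smith replicate 2 or 3. MdCXE-2, MdCXE-4 and MdCXE-5 kept their calls throughout, and no member changed direction. The cause of these changes was not tested beyond the filter itself.

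The replicate numbers are shared between the cultivars. Deviations of same-numbered libraries from their cultivar means correlated across genes at 0.16, 0.28 and -0.03. Between libraries of different number the values lay between -0.25 and 0.11. Whether same-numbered libraries share more than a number was not tested. A fit with the replicate block called 2534 genes higher and 1967 lower in Jonagold and kept the call of each of the 6 members. The Granny Smith levels of MdCXE-5 and MdCXE-7 are limited by depth, at 1 to 8 reads per library.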
